A study of Mus musculus with 152 samples.

Results

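After 32 weeks on the LIDPAD diet, C57BL/6J mouse liver was compared with liver of mice kept on a control diet for the same time. The diet began at 8 weeks of age in both groups, and the labels give no other treatment or allele. The series holds 152 deposited liver samples over several diet durations, of which the 36 at week 32 were used here (20 LIDPAD, 16 control). Each run of 4 consecutive sample numbers behaved as one library, and the 4 columns were averaged, which left 5 LIDPAD libraries (1 to 5) and 4 control libraries (1 to 4). The composition of the diets, the sex of the mice and the number of animals are not given in the sources used here. Whether each library is a separate mouse is not stated in the labels, and the p-values therefore reflect library-to-library spread, which may be technical in part.

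Fat reaches liver cells by uptake of fatty acids from blood and by synthesis from acetyl-CoA, and it leaves them by oxidation or in very-low-density lipoprotein. Cholesterol is made by a separate chain of enzymes whose genes are switched on by the factor SREBP2 when cells are short of sterol. In fatty liver disease with inflammation, stellate cells are known to lay down collagen, macrophages take up lipid and debris, and bile-duct-like cells can expand. All values below are fragment counts scaled by size factors (FPM), listed in the order of the library numbers. Differences are log2(FPM + 0.5) in LIDPAD minus control, given with a standard error and a p-value from limma adjusted by the Benjamini-Hochberg method over all genes tested. A gene was called at an adjusted p under 0.05, and "rose", "fell" and "changed" are used of called genes alone. The added 0.5 FPM makes the differences of weakly expressed genes too small.

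The libraries held 10870033 to 32815306 assigned reads each, and both diets spanned most of that range (exact permutation test, two-sided, p = 0.841). The share of mitochondrial ribosomal RNA was 20.3% ± 2.29 (SD, n = 4) in control and 25.9% ± 3.31 (SD, n = 5) in LIDPAD libraries (exact permutation p = 0.0476, 0.0952 after adjustment over 4 measures). Pearson correlations of log2(FPM + 0.5) across genes were 0.971 to 0.982 among control libraries, 0.923 to 0.994 among LIDPAD libraries and 0.867 to 0.947 between the diets. LIDPAD libraries 4 and 5 were the closest pair of all, at 0.994. The share of a library's reads in each of its 4 columns formed 2 sets of libraries, which the labels do not name: control 1 to 3 with LIDPAD 1 to 3, and control 4 with LIDPAD 4 and 5. Genes more than 4-fold away from the mean of the other libraries of the diet, on the log2 scale, numbered 79 above and 113 below in LIDPAD 1. In LIDPAD 2 they numbered 51 above and 71 below.

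Of 14187 genes tested, 3810 (26.9%) changed. More genes rose, 2559 (18.0%), than fell, 1251 (8.82%), and the median difference of all tested genes was 0.04. In 3659 genes (25.8%) the 2 diets did not overlap in any library, with LIDPAD above in 2411 (17.0%) and below in 1248 (8.8%). Differences above 2-fold were seen for 1628 genes that rose and 322 that fell. The FPM total of a library was 976793 to 1286288 in control and 754377 to 970586 in LIDPAD (exact permutation p = 0.0159, the smallest possible, 0.0635 after adjustment), and the split by direction depended on scaling. With every library set to the same total the median difference moved up by 0.29 and 4070 genes rose (28.4%) against 362 that fell (2.53%), while quantile scaling moved the median difference down by 0.14 and gave 1807 (12.7%) against 1756 (12.4%). Without LIDPAD library 1, 17.4% of 13921 genes rose and 8.66% fell. Gene lists below are described by their counts and median beside these values for all genes. The low-value filter, 1 FPM in 4 libraries, can be passed through the LIDPAD libraries alone. Among the genes that did so were Trem2, Gpnmb, Timp1, H19, Cx3cr1, Ubd, Lox and Pdgfb. The counts of genes that rose in lists with such members are therefore partly set by the filter. Such lists include those of interferon response, collagens and matrix, matrix proteases, stellate cells, chemokines, monocytes, lipid-associated macrophages and fetal liver genes.

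**Figure D1:**
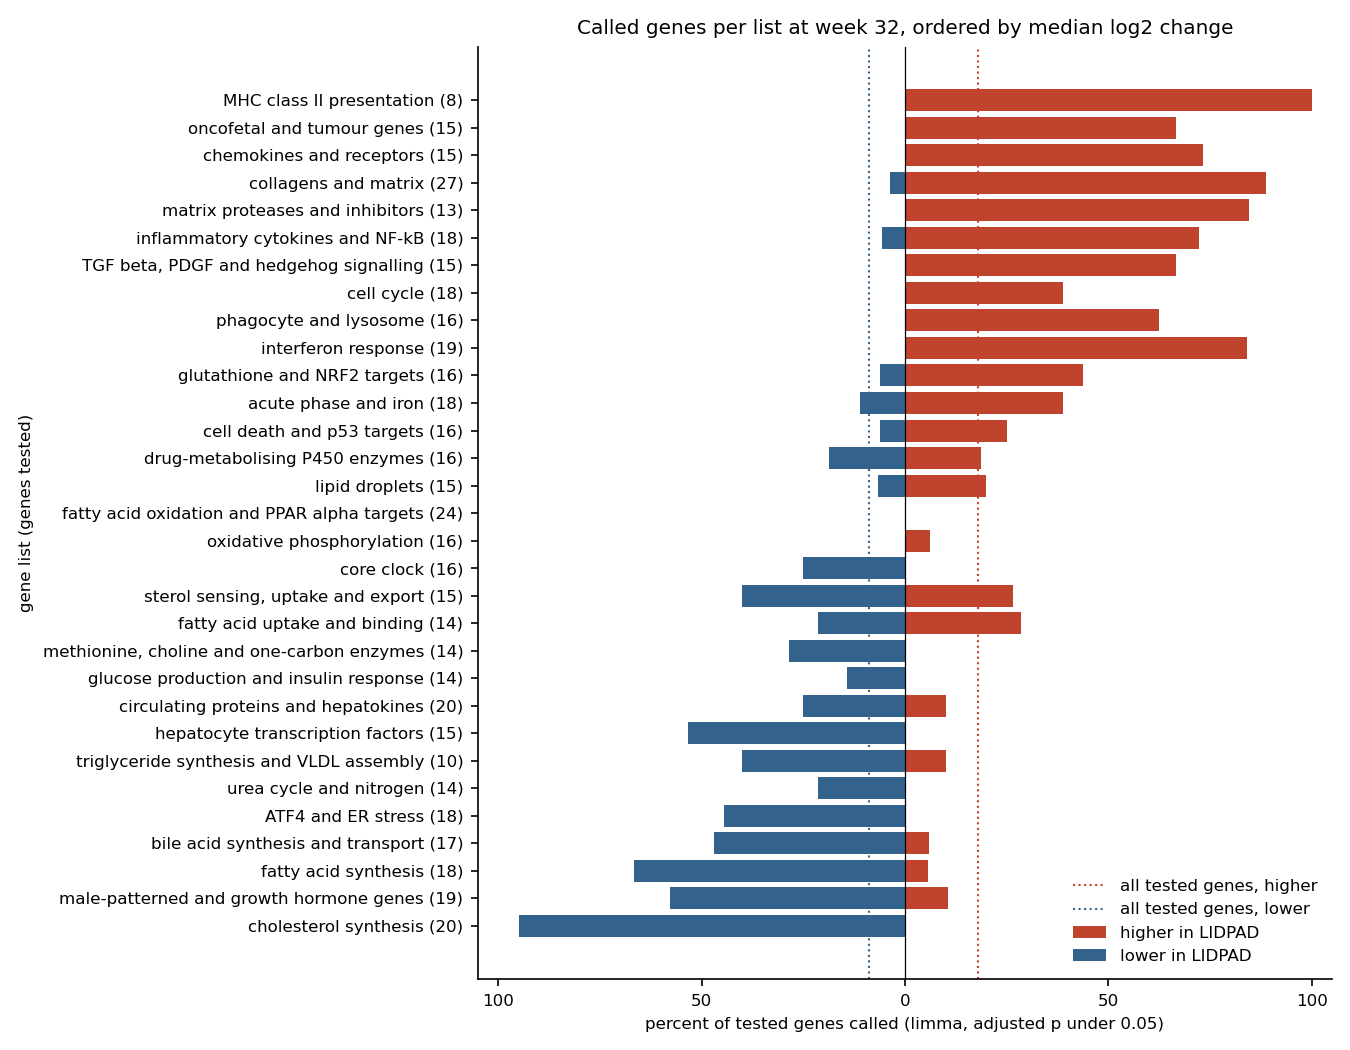
Percent of the tested genes of each list that were called higher or lower in LIDPAD livers at week 32, with the number of genes tested. Dotted lines mark the share over all genes tested, 18.0% higher and 8.82% lower.

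Cholesterol synthesis genes fell nearly throughout. Of the 20 enzymes tested 19 fell and 0 rose, beside 8.82% of all genes that fell. Their median difference was -1.70, and every enzyme was lower in all 5 LIDPAD libraries than in any control library. The summed level of the enzymes was 2255 to 2890 FPM in control libraries and 576 to 1307 FPM in LIDPAD libraries. The promoters of Idi1, which makes the isoprene unit of the pathway, and of Hmgcs1, which makes HMG-CoA, are shown because the CCAAT sequence recurs across these genes. RefSeq promoters were matched for 15 of the 20, and 13 of the 15 held CCAAT (or its reverse complement ATTGG) and 13 the GC box GGGCGG (or CCGCCC) in the 150 bases before the gene start, against 25.3% and 29.1% of all 27025 mouse promoters. Both strands were searched, and a match describes the letters only. Capitals mark CCAAT or ATTGG in the stretches of assembly GRCm38.p6 at chr13:8885456-8885605, plus strand (Idi1) and chr13:119690201-119690350, plus strand (Hmgcs1), each written 5′ to 3′ on the strand of its gene.
Idi1: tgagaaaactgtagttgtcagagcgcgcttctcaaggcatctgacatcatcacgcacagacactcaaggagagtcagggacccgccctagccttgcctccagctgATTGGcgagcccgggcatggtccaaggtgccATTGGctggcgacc
Hmgcs1: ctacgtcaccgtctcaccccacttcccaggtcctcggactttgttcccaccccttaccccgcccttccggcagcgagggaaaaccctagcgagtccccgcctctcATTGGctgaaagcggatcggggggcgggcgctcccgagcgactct

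Idi1 was at 123, 208, 187 and 268 FPM in the control libraries and 85.7, 4.93, 36.5, 25.9 and 33.7 FPM in the LIDPAD libraries. LIDPAD library 1 was the nearest to control and LIDPAD library 2 the lowest, and the groups did not overlap (-2.79 ± 0.61, adjusted p = 0.00668). Sqle, squalene epoxidase and a flux-controlling step, followed the same order with 57.2, 93.7, 92.7 and 103 FPM in the control libraries and 44.0, 2.88, 20.9, 6.60 and 9.78 FPM in the LIDPAD libraries (-2.84 ± 0.60, adjusted p = 0.00534). The diets did not overlap for Sqle either. Mvd, the mevalonate diphosphate decarboxylase, and Fdft1, squalene synthase, fell by less with less spread, with differences of -2.07 ± 0.31, adjusted p = 7.88e-04 and -1.68 ± 0.25, adjusted p = 6.98e-04. Hmgcs1 was at 231, 251, 271 and 309 FPM in the control libraries and 131, 45.2, 115, 132 and 155 FPM in the LIDPAD libraries (-1.30 ± 0.31, adjusted p = 0.00933).

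Genes that sense or move sterol went in both directions. Of 15 tested, 4 rose and 6 fell (median -0.18, 0.12 with equal totals; 3 fell with equal totals or quantile scaling). Those that rose are known LXR targets: Abcg1, which moves sterol out of macrophages, Abcg5 and Abcg8, which together pump sterol into bile, and Mylip, which marks the LDL receptor for degradation. Abcg1 was at 6.24, 5.33, 8.12 and 6.83 FPM in the control libraries and 41.3, 139.9, 37.0, 28.8 and 23.4 FPM in the LIDPAD libraries. All 5 LIDPAD libraries lay above all control libraries, with LIDPAD library 2 the highest (2.62 ± 0.42, adjusted p = 0.00122). Abcg5 was at 26.1 to 43.5 FPM in control and 69.5 to 199 FPM in LIDPAD libraries (1.51 ± 0.29, adjusted p = 0.0031), and Mylip differed by 1.04 ± 0.20, adjusted p = 0.00324. Abcg8 was weaker (0.98 ± 0.28, adjusted p = 0.0228). Abcg8 was not called without control library 1, 2 or 4 (adjusted p = 0.0557 to 0.0677). Scap, the escort protein of SREBP, was at 78.3, 84.0, 137 and 62.6 FPM in the control libraries and 43.6, 39.2, 38.5, 33.3 and 30.5 FPM in the LIDPAD libraries and fell in all libraries without overlap (-1.23 ± 0.20, adjusted p = 0.00149). The sterol carrier Stard4, itself an SREBP2 target, also fell (-1.84 ± 0.33, adjusted p = 0.00238).

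Fatty acid synthesis fell less evenly. Of 18 genes 12 fell and 1 rose (median -1.10; 7 fell with equal totals). Elovl3, an elongase of very long fatty acids, was at 300.4, 234, 377 and 197 FPM in the control libraries and 1.46, 3.06, 16.7, 50.4 and 38.7 FPM in the LIDPAD libraries. It was lowest in LIDPAD libraries 1 and 2 and there was no overlap (-4.50 ± 0.86, adjusted p = 0.00308). Acly, which makes cytosolic acetyl-CoA, was at 594, 403, 1058 and 445 FPM in the control libraries and 178, 87.2, 164, 286 and 277 FPM in the LIDPAD libraries, again below every control library (-1.66 ± 0.37, adjusted p = 0.00695). Acacb, an acetyl-CoA carboxylase, fell in a similar way (-1.54 ± 0.35, adjusted p = 0.00743). Fasn, fatty acid synthase, was at 1909, 1525, 3108 and 1179.8 FPM in the control libraries and 389, 414, 752, 1349 and 1367 FPM in the LIDPAD libraries. LIDPAD libraries 4 and 5 overlapped the lowest control library, and the call was near its threshold (-1.29 ± 0.44, adjusted p = 0.0491). Fasn was not called without control library 1, 2 or 3 or LIDPAD library 1, 2 or 3 (adjusted p = 0.0788 to 0.141). Fasn had an adjusted p of 0.0985 with equal totals and 0.24 with quantile scaling. Scd1, the stearoyl-CoA desaturase of hepatocytes, was not called (-0.74 ± 0.59, adjusted p = 0.398), and LIDPAD libraries 4 and 5 lay within the control range. Its relative Scd2, low in adult hepatocytes, rose, with 49.8, 43.6, 57.5 and 39.3 FPM in the control libraries and 76.2, 146, 277, 102 and 98.8 FPM in the LIDPAD libraries (1.41 ± 0.31, adjusted p = 0.00709). The count that fell was 5 without control library 1, where 2 rose, and 4 without control library 3, and its median was -1.72 in control and LIDPAD libraries 1 to 3 against -0.23 in the other set.

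Several fatty acid uptake genes rose steeply. Lpl, the lipase that frees fatty acids from blood lipoproteins and is normally low in adult hepatocytes, was at 7.23, 15.4, 14.2 and 12.5 FPM in the control libraries and 316, 542, 257, 148 and 129 FPM in the LIDPAD libraries. Every LIDPAD library was above every control library by a wide margin (4.30 ± 0.38, adjusted p = 5.80e-05). Cd36, a fatty acid and lipoprotein receptor, was at 40.6, 16.9, 15.4 and 43.0 FPM in the control libraries and 189, 375, 203, 294 and 279 FPM in the LIDPAD libraries (3.29 ± 0.33, adjusted p = 9.42e-05). LIDPAD library 2 was the highest for both genes, and no library overlapped. Fabp4, a fatty acid binding protein of adipocytes and macrophages, and Slc27a1, a fatty acid transporter, also rose (3.09 ± 0.42, adjusted p = 4.76e-04 and 1.81 ± 0.35, adjusted p = 0.00348). Over the list 4 of 14 rose and 3 fell (median -0.25, 0.05 with equal totals). Among those that fell was Fabp1, the main fatty acid binding protein of hepatocytes, with 2108, 2028, 2285 and 2695 FPM in the control libraries and 322, 389.6, 642, 1652 and 1614 FPM in the LIDPAD libraries (-1.62 ± 0.48, adjusted p = 0.0273). LIDPAD libraries 1 to 3 held much less Fabp1 than 4 and 5. Fabp1 was not called without control library 1, 2, 3 or 4 or LIDPAD library 2 or 3 (adjusted p = 0.0545 to 0.0684). Fabp1 had an adjusted p of 0.201 with quantile scaling.

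Lipid droplet proteins were mixed, with 3 of 15 called higher and 1 lower (median 0.10, -0.04 with quantile scaling). Both counts were near the shares of all genes that rose (18.0%) and fell (8.82%). No droplet gene was called lower without LIDPAD library 1, 2, 3 or 5 or control library 4. Plin4, a droplet coat protein, was at 13.4, 16.9, 7.85 and 8.84 FPM in the control libraries and 14.8, 101, 45.3, 138 and 163 FPM in the LIDPAD libraries (2.57 ± 0.60, adjusted p = 0.009). LIDPAD library 1 fell inside the control range while the other 4 were above it. Cidec, which fuses droplets, had the same pattern, with 2.07, 3.87, 1.55 and 12.0 FPM in the control libraries and 4.37, 52.7, 29.7, 44.9 and 54.1 FPM in the LIDPAD libraries (2.80 ± 0.72, adjusted p = 0.0149). Cidec had an adjusted p of 0.0517 leaving out control library 3. LIDPAD library 1 also held 0.165 FPM of the adipokine Cfd against 9.00 to 23.8 FPM in the other LIDPAD libraries. Of 10 adipocyte markers 4 were tested and 2 rose (1 without LIDPAD library 3 or control library 1 or 2), with summed levels of 1073 to 2321 FPM in control and 82.1 to 1704 FPM in LIDPAD libraries. Adipoq was 0 in 8 libraries and 0.385 FPM (8 reads) in LIDPAD library 3, Lep was 0 in all 9, and the part of adipocytes in these results was not tested. In assembly of triglyceride and very-low-density lipoprotein 4 of 10 genes fell and 1 rose (1 fell with equal totals or quantile scaling), and the rise was called with all libraries or without LIDPAD library 1 only. Lpin1, a phosphatidate phosphatase, was at 184, 251, 472 and 157 FPM in the control libraries and 152, 70.8, 37.7, 30.1 and 45.0 FPM in the LIDPAD libraries, and no LIDPAD library reached the control range (-2.10 ± 0.45, adjusted p = 0.00588). Mttp, which loads lipid onto apolipoprotein B, was 276 to 321 FPM in control and 131 to 246 FPM in LIDPAD libraries (-0.83 ± 0.21, adjusted p = 0.0142). Mttp had an adjusted p of 0.104 with equal totals and 0.0675 with quantile scaling.

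Fatty acid oxidation and the targets of PPAR alpha gave no calls with limma among 24 genes tested (median -0.03, 0.25 with equal totals), while 6 passed an unadjusted p under 0.05, edgeR called 1 and DESeq2 called 3. With limma 3 were called higher with equal totals and 1 with quantile scaling. Cpt1a, which controls entry of fatty acids into mitochondria, was at 201, 268, 179 and 282 FPM in the control libraries and 144, 165, 195, 223 and 251 FPM in the LIDPAD libraries. LIDPAD libraries 1 and 2 lay below the control range and the other LIDPAD libraries within it (-0.25 ± 0.20, adjusted p = 0.387). Ehhadh, a peroxisomal enzyme, was 121 to 166 FPM in control and 119.8 to 570.1 FPM in LIDPAD libraries (0.98 ± 0.35, adjusted p = 0.059). Without LIDPAD library 1, 5 genes of the list were called higher and 1 lower. Without control library 1 the number called higher was 1, and without control library 4 it was 2.

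Among bile acid genes 8 of 17 fell and 1 rose (median -0.73). Slc10a1, the sodium-dependent bile acid importer, was at 324, 223, 458 and 388 FPM in the control libraries and 111, 41.8, 55.5, 88.9 and 76.6 FPM in the LIDPAD libraries. Every LIDPAD library lay below the control range (-2.24 ± 0.29, adjusted p = 3.54e-04). Cyp7b1, of the alternative synthesis pathway, fell more, with 86.4, 115, 203 and 181 FPM in the control libraries and 10.3, 14.8, 17.5, 34.9 and 32.3 FPM in the LIDPAD libraries (-2.77 ± 0.37, adjusted p = 4.09e-04). Cyp8b1, which sets the share of cholic acid, was at 202, 133, 174 and 136 FPM in the control libraries and 46.6, 11.4, 29.6, 101 and 89.1 FPM in the LIDPAD libraries (-1.87 ± 0.52, adjusted p = 0.0219). LIDPAD libraries 1 to 3 were farther from control than 4 and 5. Cyp8b1 was not called without control library 1 or 3 or LIDPAD library 3 (adjusted p = 0.0531 to 0.0624). Cyp7a1, the rate-limiting enzyme of the classical pathway, varied more within than between the diets, with 171, 63.1, 21.7 and 68.5 FPM in the control libraries and 87.2, 65.8, 76.7, 40.9 and 75.1 FPM in the LIDPAD libraries (0.08 ± 0.46, adjusted p = 0.925). Abcb4, the phospholipid exporter of the bile canaliculus, was the gene called higher (0.59 ± 0.20, adjusted p = 0.0456). Abcb4 was not called without control library 1, 3 or 4 or LIDPAD library 2, 3, 4 or 5 (adjusted p = 0.0725 to 0.133).

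In rodents, many hepatocyte genes are expressed more in males, whose growth hormone comes in pulses, and this group held some of the deepest falls. Of 19 genes listed as male-patterned or growth hormone dependent and tested, 11 fell and 2 rose (median -1.42). Slco1a1, an organic anion transporter, had the smallest p-value of the genes that fell, and its promoter is shown for that reason. Capitals mark the nuclear receptor motif AGGTCA or its reverse complement TGACCT in the 150 bases before its start (chr6:141946963-141947112, minus strand, GRCm38.p6, RefSeq, both strands searched). The motif occurred in 2 of the 12 matched promoters of this list and in 8.45% of all promoters.
Slco1a1: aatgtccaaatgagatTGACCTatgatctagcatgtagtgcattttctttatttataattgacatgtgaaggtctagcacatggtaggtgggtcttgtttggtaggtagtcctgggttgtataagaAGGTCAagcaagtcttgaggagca
Slco1a1 was at 534, 543, 743 and 736 FPM in the control libraries and 13.7, 14.0, 17.8, 22.7 and 15.0 FPM in the LIDPAD libraries. The 5 LIDPAD libraries were close to each other and far below every control library (-5.23 ± 0.18, adjusted p = 7.73e-08). Hsd3b5, a steroid-metabolising enzyme of male liver, was at 83.1, 98.3, 171 and 177 FPM in the control libraries and 1.90, 0, 0.194, 0.524 and 0.240 FPM in the LIDPAD libraries, with no read in LIDPAD library 2 (-7.11 ± 0.41, adjusted p = 7.84e-06). The diets were far apart for Hsd3b5 too.

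**Figure D2:**
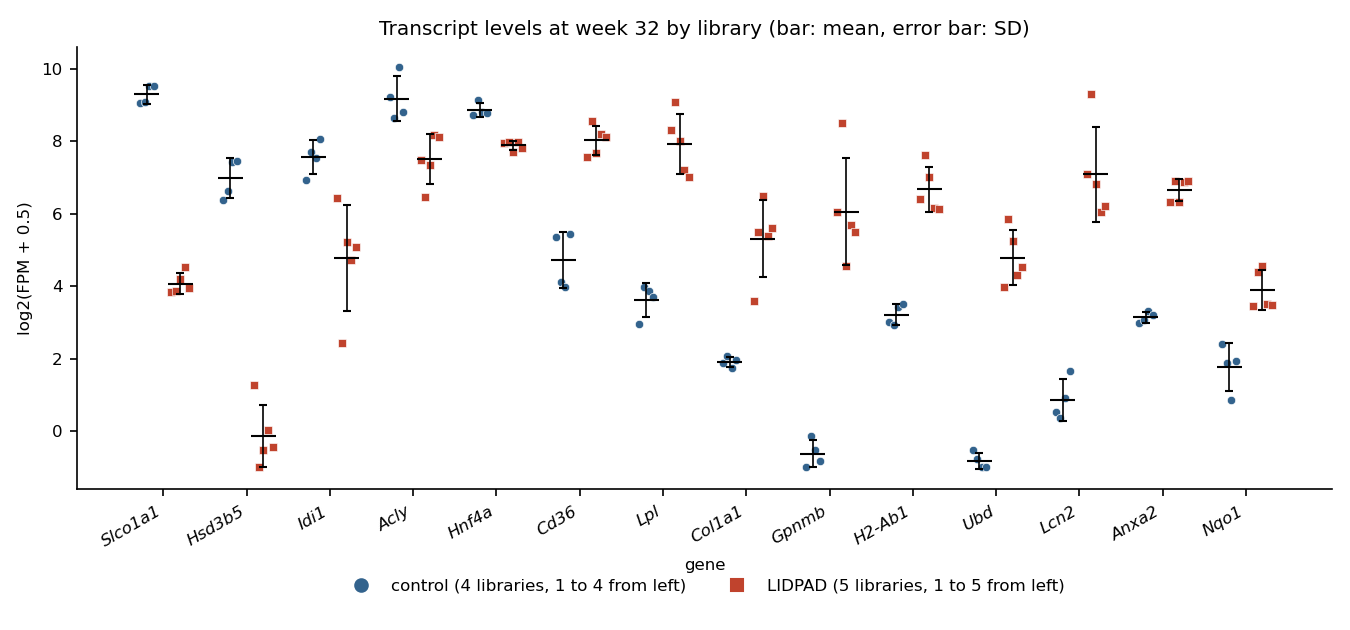
log2(FPM + 0.5) in each of the 4 control and 5 LIDPAD libraries for 14 genes, with group mean and SD. Slco1a1 and Hsd3b5 lie far below control in LIDPAD libraries, and Gpnmb, Ubd and Lcn2 lie far above control.

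The major urinary proteins, secreted pheromone carriers encoded by a cluster of near-identical genes, spread widely among LIDPAD libraries. Mup3 was at 4856, 3014, 7051 and 5403 FPM in the control libraries and 39.1, 9.40, 55.5, 1032 and 855 FPM in the LIDPAD libraries. LIDPAD libraries 1 to 3 held much less than 4 and 5, although none reached the control range (-5.41 ± 1.20, adjusted p = 0.00682). Mup21 differed by -4.66 ± 0.88, adjusted p = 0.00295. Mup20, darcin, was not called (-2.01 ± 0.86, adjusted p = 0.111), and LIDPAD library 4 lay above the lowest control library. Of 20 tested members of the family, grouped after the values were seen, 18 fell (median -3.88). When one library was omitted the count was 9 (control 1), 10 (control 2), 3 (control 3), 6 (control 4), 10 (LIDPAD 1), 7 (LIDPAD 2) and 9 (LIDPAD 3), while quantile scaling gave 8 and edgeR 6. The copies share reads, so the split between them is uncertain. Sult2a8, a bile acid sulfotransferase, also fell and was lower in LIDPAD libraries 1 to 3 than in 4 and 5 (-3.95 ± 0.93, adjusted p = 0.00929). In the female-patterned direction Cyp2a4 was at 2.06, 1.28, 3.02 and 2.21 FPM in the control libraries and 245, 23.2, 321, 6.61 and 9.67 FPM in the LIDPAD libraries, highest in LIDPAD libraries 1 and 3 (4.04 ± 1.05, adjusted p = 0.0154), and Cyp2b9 was called but not stable (3.01 ± 0.98, adjusted p = 0.0418). Cyp2b9 was not called without control library 2, 3 or 4 or LIDPAD library 1, 4 or 5 (adjusted p = 0.0806 to 0.115). Cyp2b9 had an adjusted p of 0.0692 with quantile scaling.

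Drug-metabolising P450 enzymes went in both directions, 3 of 16 higher and 3 lower (6 higher and 2 lower with equal totals, 2 and 2 with quantile scaling). Of all genes tested 18.0% rose and 8.82% fell, so the count higher was near the share of all genes. Cyp3a11, the main Cyp3a enzyme of mouse liver, was at 749, 665, 279 and 559.8 FPM in the control libraries and 966, 8605, 4601, 3120.3 and 2544 FPM in the LIDPAD libraries. LIDPAD library 1 was nearest to control (2.57 ± 0.54, adjusted p = 0.00541). Cyp2f2, a periportal enzyme, fell, with 265, 283, 319 and 231 FPM in the control libraries and 59.8, 192, 141, 118 and 79.8 FPM in the LIDPAD libraries and no overlap (-1.32 ± 0.29, adjusted p = 0.00668). Without LIDPAD library 1, 5 genes of the list were higher, and without LIDPAD library 3 or control library 1, 3 or 4 only 1 was lower. Pericentral markers, expressed near the central vein, separated the LIDPAD libraries. Cyp2e1 was at 2308, 1451, 2763 and 3539 FPM in the control libraries and 301, 414, 938, 2542 and 2285 FPM in the LIDPAD libraries, Glul, glutamine synthetase, at 463, 399, 720.3 and 542 FPM in the control libraries and 172, 90.2, 254, 896 and 837 FPM in the LIDPAD libraries and the glutamate transporter Slc1a2 at 98.1, 92.8, 89.7 and 112 FPM in the control libraries and 9.18, 1.52, 25.2, 80.4 and 85.9 FPM in the LIDPAD libraries. In all of them LIDPAD libraries 1 to 3 lay below control, and 4 and 5 lay in or above the control range except for Slc1a2, where they were just below it. None of the 9 tested pericentral markers was called, 3 passed an unadjusted p under 0.05, and edgeR and DESeq2 each called 0. Without LIDPAD library 4, 2 were called lower, and without LIDPAD library 5, 1 was.

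**Figure D3:**
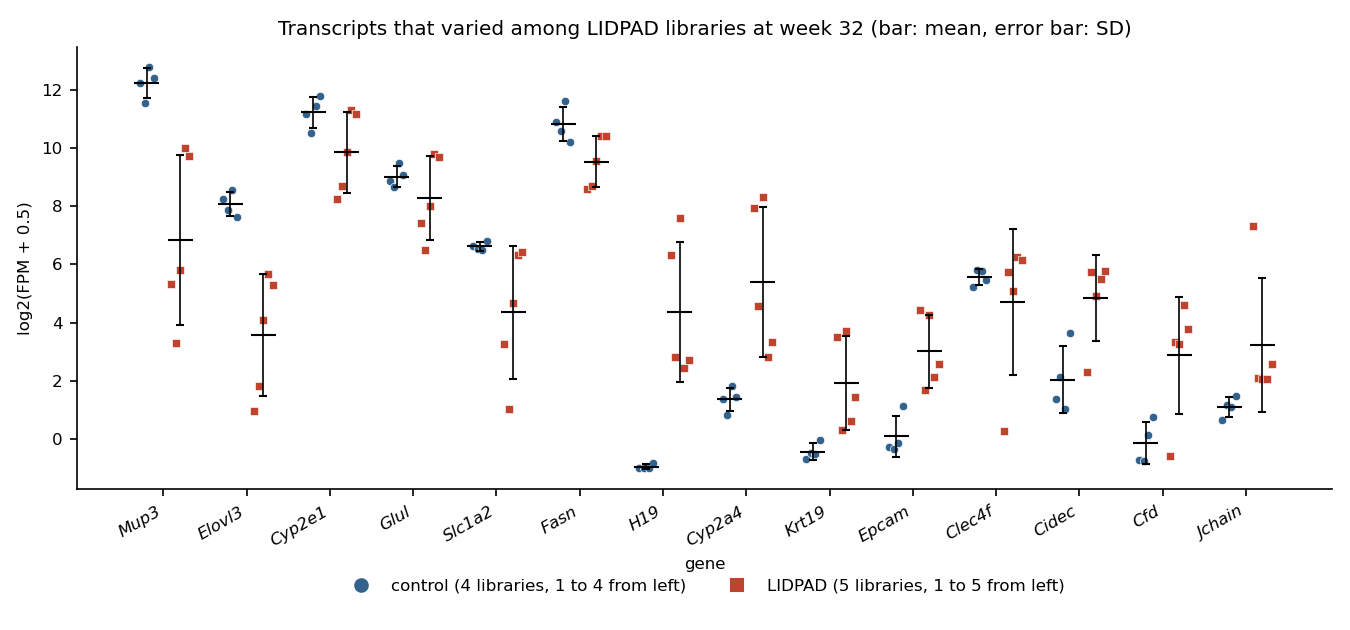
log2(FPM + 0.5) in each library for 14 genes that spread among LIDPAD libraries, with group mean and SD. Mup3, Elovl3, Cyp2e1, Glul and Slc1a2 are lower in LIDPAD libraries 1 to 3 than in 4 and 5, while Jchain is highest and Clec4f and Cidec lowest in LIDPAD library 1.

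Transcription factors that hold hepatocyte identity fell modestly. Of 15 tested 8 fell and 0 rose (median -0.59), a count that was 5 without control library 3 and 3 with equal totals. Hnf4a, the central hepatocyte nuclear receptor, was at 427, 565, 446 and 438 FPM in the control libraries and 248, 253, 208, 251 and 226 FPM in the LIDPAD libraries and was in every LIDPAD library below every control library (-0.98 ± 0.14, adjusted p = 5.44e-04). Foxa1, a pioneer factor, and Rxra, the partner of many nuclear receptors, fell to a similar degree (-0.97 ± 0.18, adjusted p = 0.00261 and -0.69 ± 0.12, adjusted p = 0.00167). Rxra had an adjusted p of 0.0947 with equal totals. Among secreted proteins, Serpina3k was at 3622, 4632, 7363 and 7539 FPM in the control libraries and 2412, 1259, 861, 1383 and 1210.2 FPM in the LIDPAD libraries (-2.04 ± 0.35, adjusted p = 0.00172), and Rbp4, the retinol carrier, fell with little spread (-0.76 ± 0.12, adjusted p = 0.0013). Rbp4 had an adjusted p of 0.0602 with equal totals and 0.144 with quantile scaling. Albumin (Alb) was at 76446, 73522, 56231 and 59514 FPM in the control libraries and 92258, 20289.5, 29513, 25435 and 23717 FPM in the LIDPAD libraries. It was not called (-1.04 ± 0.89, adjusted p = 0.425), and LIDPAD library 1 lay above every other library and the other 4 below every control library. The summed level of 10 hepatocyte markers was 97455 to 108774 FPM in control and 36764 to 116676 FPM in LIDPAD libraries. Of the 10, 6 fell (median -1.02), which became 8 without LIDPAD library 1, 2 with quantile scaling (median -0.27), 3 with the replicate number as a block and 3 in control and LIDPAD libraries 1 to 3 alone. The part of the hepatocyte share in the falls above was not tested. In whole liver RNA, fewer cells of a type and less RNA per cell cannot be told apart.

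Nitrogen handling showed smaller differences. Of 14 urea cycle and nitrogen genes 3 fell, which became 7 without LIDPAD library 1, 5 without LIDPAD library 2 and 1 without control library 3, and 1 with equal totals and 0 with quantile scaling. Cps1, the entry enzyme of the urea cycle, was 3143 to 4336 FPM in control and 1272 to 2946 FPM in LIDPAD libraries (-1.09 ± 0.29, adjusted p = 0.0181). Cps1 had an adjusted p of 0.0526 leaving out control library 3 and 0.051 leaving out control library 4. Cps1 had an adjusted p of 0.379 with quantile scaling. In methionine and one-carbon metabolism 4 of 14 fell (median -0.29, 0.01 with equal totals; 1 fell with quantile scaling). Cbs, which commits homocysteine to cysteine, was at 345, 384, 315 and 253 FPM in the control libraries and 189.8, 121, 116, 146 and 136 FPM in the LIDPAD libraries (-1.20 ± 0.17, adjusted p = 6.96e-04), and Pemt, which makes phosphatidylcholine, fell less (-0.55 ± 0.11, adjusted p = 0.00468). Neither gene overlapped between diets. Pemt had an adjusted p of 0.23 with equal totals and 0.0512 with quantile scaling.

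Genes of glucose production, respiration and the clock gave few calls. Of 14 glucose and insulin-response genes 2 fell (0 with equal totals), beside 8.82% of all genes tested. The count was 0 to 5 when single libraries were left out. It was lowest without control library 1 and highest without LIDPAD library 1 or 4. It was 4 without LIDPAD library 5 and 1 without LIDPAD library 2 or control library 3. Insr, the insulin receptor, was 145 to 153 FPM in control and 105 to 129.7 FPM in LIDPAD libraries (-0.39 ± 0.11, adjusted p = 0.0192). Insr had an adjusted p of 0.0562 leaving out control library 1 and 0.0503 leaving out LIDPAD library 5. Insr had an adjusted p of 0.721 with equal totals and 0.265 with quantile scaling. Of 16 respiratory chain genes 1 rose and 0 fell, and 1 was called lower without LIDPAD library 4. Of 16 clock genes 4 fell and 0 rose, with 2 lower without LIDPAD library 3 or control library 1 or 2, 1 lower with equal totals, and 1 or 2 higher when a control library was left out (2 without control library 4). The log2 ratio of Arntl to Dbp, which peak at opposite times of day, averaged 3.71 in control and 2.70 in LIDPAD libraries (exact permutation test, two-sided, p = 0.381). It ranged from 1.13 to 5.20 among control and from 1.52 to 3.54 among LIDPAD libraries. With such a spread the test does not show that the diets were matched in clock phase.

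Collagens and other matrix genes rose almost throughout. Of 27 tested 24 rose and 1 fell (median 1.76, 18.0% of all genes rose). Col1a1, the main fibrillar collagen of scar, was at 3.17, 3.69, 2.85 and 3.38 FPM in the control libraries and 11.6, 44.6, 89.6, 41.1 and 48.7 FPM in the LIDPAD libraries. LIDPAD library 1 was the lowest of its diet and still above every control library (3.41 ± 0.44, adjusted p = 3.64e-04). Col3a1 gave the same picture, with 20.5, 25.9, 22.5 and 26.9 FPM in the control libraries and 28.1, 114, 277, 206 and 246 FPM in the LIDPAD libraries (2.48 ± 0.55, adjusted p = 0.00704). Col5a2, Lum, a collagen-binding proteoglycan, and Col6a1 had the smallest p-values of the list, at 2.95 ± 0.26, adjusted p = 5.14e-05, 2.43 ± 0.22, adjusted p = 5.80e-05 and 1.88 ± 0.17, adjusted p = 5.89e-05. The gene that fell was Fn1, fibronectin, which hepatocytes make for plasma, at 1273 to 1605 FPM in control and 649 to 868 FPM in LIDPAD libraries (-0.92 ± 0.17, adjusted p = 0.00285). Fn1 had an adjusted p of 0.231 with quantile scaling.

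Enzymes that crosslink and cut matrix rose with the collagens. Lox, lysyl oxidase, was 0.134 to 0.265 FPM in control and 2.24 to 4.00 FPM in LIDPAD libraries (2.35 ± 0.22, adjusted p = 6.64e-05). Mmp12, the macrophage elastase, was at 0, 1.62, 0 and 0.247 FPM in the control libraries and 51.8, 104, 16.0, 29.5 and 27.2 FPM in the LIDPAD libraries. It had no read in 2 control libraries and was above 15 FPM in every LIDPAD library (5.57 ± 0.54, adjusted p = 8.49e-05). Of 13 tested proteases and inhibitors 11 rose and 0 fell. Mmp2, made by stellate cells, and Plau, the urokinase, were the other members with the smallest p-values (2.61 ± 0.27, adjusted p = 1.12e-04 and 2.72 ± 0.31, adjusted p = 1.88e-04). Timp1, an inhibitor of matrix proteases, was at 0.109, 0.313, 0 and 0.0669 FPM in the control libraries and 0.533, 1.42, 2.19, 1.65 and 2.86 FPM in the LIDPAD libraries (1.76 ± 0.33, adjusted p = 0.00306). Timp1 did not pass the low-value filter without LIDPAD library 2, 3, 4 or 5.

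Stellate cell and myofibroblast markers rose in 11 of 16, with summed levels of 258 to 301 FPM in control and 419 to 860 FPM in LIDPAD libraries. The count was 8 to 12 when a library was left out. It was 7 of 15 in control and LIDPAD libraries 1 to 3 alone, and 8 of 15 with LIDPAD libraries 4 and 5 as 1 sample. Timp1 and Lox, both in this list, passed the low-value filter through the LIDPAD libraries alone. Pdgfrb, the PDGF receptor of stellate cells, was at 9.08, 7.24, 13.2 and 10.1 FPM in the control libraries and 23.9, 28.8, 48.5, 22.8 and 27.2 FPM in the LIDPAD libraries, and LIDPAD library 3 was the highest (1.54 ± 0.23, adjusted p = 8.29e-04). Pdgfb, its ligand, was 0.588 to 0.883 FPM in control and 3.07 to 13.1 FPM in LIDPAD libraries, with LIDPAD libraries 4 and 5 the lowest of their diet (2.68 ± 0.39, adjusted p = 7.38e-04). Tgfbr2, a TGF beta receptor, rose with little spread (1.33 ± 0.17, adjusted p = 3.38e-04). The intermediate filament Vim was at 10.8, 12.1, 10.7 and 14.8 FPM in the control libraries and 66.8, 75.6, 67.9, 43.6 and 41.8 FPM in the LIDPAD libraries (2.21 ± 0.20, adjusted p = 5.80e-05). Acta2, smooth muscle actin, was called but unstable (1.56 ± 0.49, adjusted p = 0.0349). Acta2 was not called without control library 1, 3 or 4 or LIDPAD library 3, 4 or 5 (adjusted p = 0.0568 to 0.0935). Acta2 had an adjusted p of 0.105 with quantile scaling.

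Macrophage genes of the lipid-associated type, which surround lipid-laden hepatocytes, had the highest median difference of the lists described here. Of 14 tested 13 rose and 0 fell (median 3.83), and 1 was called lower without control library 1. Gpnmb, a lysosomal glycoprotein, was at 0, 0.406, 0.193 and 0.0683 FPM in the control libraries and 65.5, 360.4, 22.9, 51.1 and 45.0 FPM in the LIDPAD libraries. LIDPAD library 2 was far above the other 4, and all were far above control (6.68 ± 0.62, adjusted p = 6.22e-05). Trem2, a lipid receptor, was at 0.221, 0.0907, 0 and 0.386 FPM in the control libraries and 17.8, 33.3, 11.0, 11.5 and 9.46 FPM in the LIDPAD libraries (4.54 ± 0.34, adjusted p = 3.11e-05). No LIDPAD library was below 9 FPM and no control library reached 1 FPM. Itgax, Clec7a and Spp1, osteopontin, rose by 4.31 ± 0.34, adjusted p = 3.91e-05, 4.17 ± 0.35, adjusted p = 4.51e-05 and 3.85 ± 0.47, adjusted p = 2.63e-04. Spp1 was highest in LIDPAD libraries 1 and 3, unlike the others. The 14 markers summed to 58.6 to 220 FPM in control and 545 to 1699 FPM in LIDPAD libraries.

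Resident Kupffer cell markers were split. Of 10 tested 5 rose and 1 fell (median 1.46). Clec4f, a lectin specific to Kupffer cells, was at 36.9, 55.8, 53.9 and 43.6 FPM in the control libraries and 0.716, 53.4, 33.8, 76.0 and 70.1 FPM in the LIDPAD libraries (-0.86 ± 1.02, adjusted p = 0.58). In LIDPAD library 1 it was nearly absent, and in the other 4 it lay around the control range. Timd4, a marker of long-lived Kupffer cells, was also lowest in LIDPAD library 1 but was not called (-1.18 ± 0.57, adjusted p = 0.156). Cd163, the haemoglobin scavenger receptor, fell in every LIDPAD library, with 13.2, 15.6, 20.6 and 13.1 FPM in the control libraries and 2.88, 0.616, 0.705, 0.641 and 0.741 FPM in the LIDPAD libraries (-3.45 ± 0.32, adjusted p = 6.64e-05). C1qb and Adgre1, shared by macrophages generally, rose (2.61 ± 0.32, adjusted p = 2.71e-04 and 1.92 ± 0.24, adjusted p = 3.40e-04). The count called lower was 2 without LIDPAD library 2.

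Monocyte markers rose in all 6 tested of 10 listed (24.1 to 59.1 FPM summed in control, 267 to 818 FPM in LIDPAD libraries). Cx3cr1 passed the low-value filter through the LIDPAD libraries alone, so this count supports little by itself. The receptor Cx3cr1 was at 0.374, 0.294, 0.419 and 0.602 FPM in the control libraries and 31.5, 7.15, 23.7, 10.7 and 13.6 FPM in the LIDPAD libraries and Ccr2, which brings monocytes from blood, at 1.37, 0.753, 1.04 and 3.13 FPM in the control libraries and 11.6, 13.0, 18.0, 18.0 and 18.6 FPM in the LIDPAD libraries. Neither overlapped (4.09 ± 0.37, adjusted p = 5.80e-05 and 3.08 ± 0.29, adjusted p = 6.64e-05). Of 15 chemokines and receptors 11 rose and 0 fell. Ccl2, the ligand of Ccr2, was 0.330 to 1.03 FPM in control and 2.07 to 4.92 FPM in LIDPAD libraries (1.49 ± 0.26, adjusted p = 0.00218). Cxcl10, an interferon-induced chemokine, was not called (0.62 ± 0.36, adjusted p = 0.227). Of 18 inflammatory and NF-kB genes 13 rose and 1 fell. Casp1, the inflammasome protease, Casp4, which senses bacterial lipid A inside cells, and Tlr2 had differences of 2.59 ± 0.26, adjusted p = 8.98e-05, 2.37 ± 0.30, adjusted p = 3.48e-04 and 2.09 ± 0.23, adjusted p = 1.72e-04. Il18, a substrate of Casp1, was the gene that fell (-0.53 ± 0.16, adjusted p = 0.0279). Il18 was not called without control library 1, 2 or 3 or LIDPAD library 3 (adjusted p = 0.0548 to 0.0839). Il18 had an adjusted p of 0.375 with equal totals.

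All 8 genes of antigen presentation by MHC class II rose (median 3.20). The promoters of H2-Aa, H2-Eb1 and H2-DMb1 are shown because these were the 3 of 5 matched that held CCAAT or ATTGG, beside 25.3% of all promoters. Class II genes are known to carry such a sequence in their Y box, but whether each marked match is the Y box was not tested. Capitals mark CCAAT or ATTGG in the 150 bases before each start, RefSeq on GRCm38.p6, at chr17:34287824-34287973, minus strand (H2-Aa), chr17:34305717-34305866, plus strand (H2-Eb1) and chr17:34153041-34153190, plus strand (H2-DMb1).
H2-Aa: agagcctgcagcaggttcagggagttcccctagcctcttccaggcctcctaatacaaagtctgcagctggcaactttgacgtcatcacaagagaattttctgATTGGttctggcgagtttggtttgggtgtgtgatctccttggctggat
H2-Eb1: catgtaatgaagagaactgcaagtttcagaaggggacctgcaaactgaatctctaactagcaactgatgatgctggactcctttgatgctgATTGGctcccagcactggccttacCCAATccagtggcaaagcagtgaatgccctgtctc
H2-DMb1: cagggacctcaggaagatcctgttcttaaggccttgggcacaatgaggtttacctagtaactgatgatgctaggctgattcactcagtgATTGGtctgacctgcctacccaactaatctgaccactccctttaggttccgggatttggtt
H2-Aa, an alpha chain, was at 11.2, 13.2, 14.1 and 19.0 FPM in the control libraries and 162, 312, 201, 123 and 127 FPM in the LIDPAD libraries (3.58 ± 0.26, adjusted p = 2.65e-05). H2-Ab1, its partner beta chain, was at 7.57, 7.06, 10.2 and 10.9 FPM in the control libraries and 85.2, 195, 128, 71.7 and 70.1 FPM in the LIDPAD libraries (3.45 ± 0.29, adjusted p = 4.51e-05). H2-Eb1 was at 6.87, 6.58, 7.70 and 11.9 FPM in the control libraries and 103, 221, 148, 76.5 and 79.4 FPM in the LIDPAD libraries (3.76 ± 0.30, adjusted p = 4.04e-05). For all 3 genes LIDPAD library 2 was the highest, LIDPAD libraries 4 and 5 the lowest of their diet, and no LIDPAD library came near control. H2-DMb1, which helps load peptide, was at 1.11, 1.33, 2.05 and 2.34 FPM in the control libraries and 10.1, 37.4, 15.9, 10.6 and 9.88 FPM in the LIDPAD libraries (2.80 ± 0.37, adjusted p = 3.81e-04). Genes of the H2 cluster share reads, so their separate levels are less certain than their common direction.

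Interferon-response genes rose in 16 of 19 and fell in 0 (median 0.84). Ubd, a ubiquitin-like modifier induced by interferon gamma and TNF, was at 0.194, 0.0907, 0 and 0 FPM in the control libraries and 15.3, 57.6, 37.2, 19.3 and 22.6 FPM in the LIDPAD libraries, with 2 control libraries at 0 (5.60 ± 0.34, adjusted p = 8.51e-06). LIDPAD library 2 was the highest. Ifi27l2b was at 4.81, 4.14, 6.45 and 4.12 FPM in the control libraries and 36.8, 67.2, 49.2, 53.2 and 54.3 FPM in the LIDPAD libraries (3.28 ± 0.18, adjusted p = 7.39e-06). Gbp2 and Oas1a rose by 1.70 ± 0.19, adjusted p = 1.84e-04 and 1.64 ± 0.22, adjusted p = 4.32e-04. Lysosome genes of phagocytes rose in 10 of 16, among them Cd63 (3.24 ± 0.40, adjusted p = 2.88e-04).

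Lymphocyte genes were near the limit of detection. Of 18 T and NK cell markers 5 were tested and 3 rose, with 1 without LIDPAD library 1, 4 or 5 and 1 with quantile scaling. The low-value filter, 1 FPM in 4 libraries, can be passed through the LIDPAD libraries alone, as it was by Cd8a, so the count of lymphocyte markers that rose supports nothing by itself. Cd8a was 0.0970 to 0.427 FPM in control and 0.891 to 1.75 FPM in LIDPAD libraries (1.14 ± 0.23, adjusted p = 0.00455). Cd8a did not pass the low-value filter without LIDPAD library 1, 3, 4 or 5. Cd8a had an adjusted p of 0.0981 with quantile scaling. Jchain, the joining chain of secreted antibody, was at 1.08, 1.76, 1.64 and 2.26 FPM in the control libraries and 158, 3.76, 3.70, 3.64 and 5.47 FPM in the LIDPAD libraries. LIDPAD library 1 held 158 FPM and the others under 6 FPM, and it was not called (2.12 ± 0.94, adjusted p = 0.121). B and plasma cell markers summed to 17.1 to 24.9 FPM in control and 45.8 to 2446 FPM in LIDPAD libraries, the last in LIDPAD library 1. Of 10 tested 2 rose, 4 without LIDPAD library 1, 1 without control library 2, 3 or 4, and 0 without LIDPAD library 3 or 5. With equal totals 8 of them rose and with quantile scaling 0, while edgeR called 9 higher and DESeq2 4. The part of these cells in the genes above was not tested.

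**Figure D4:**
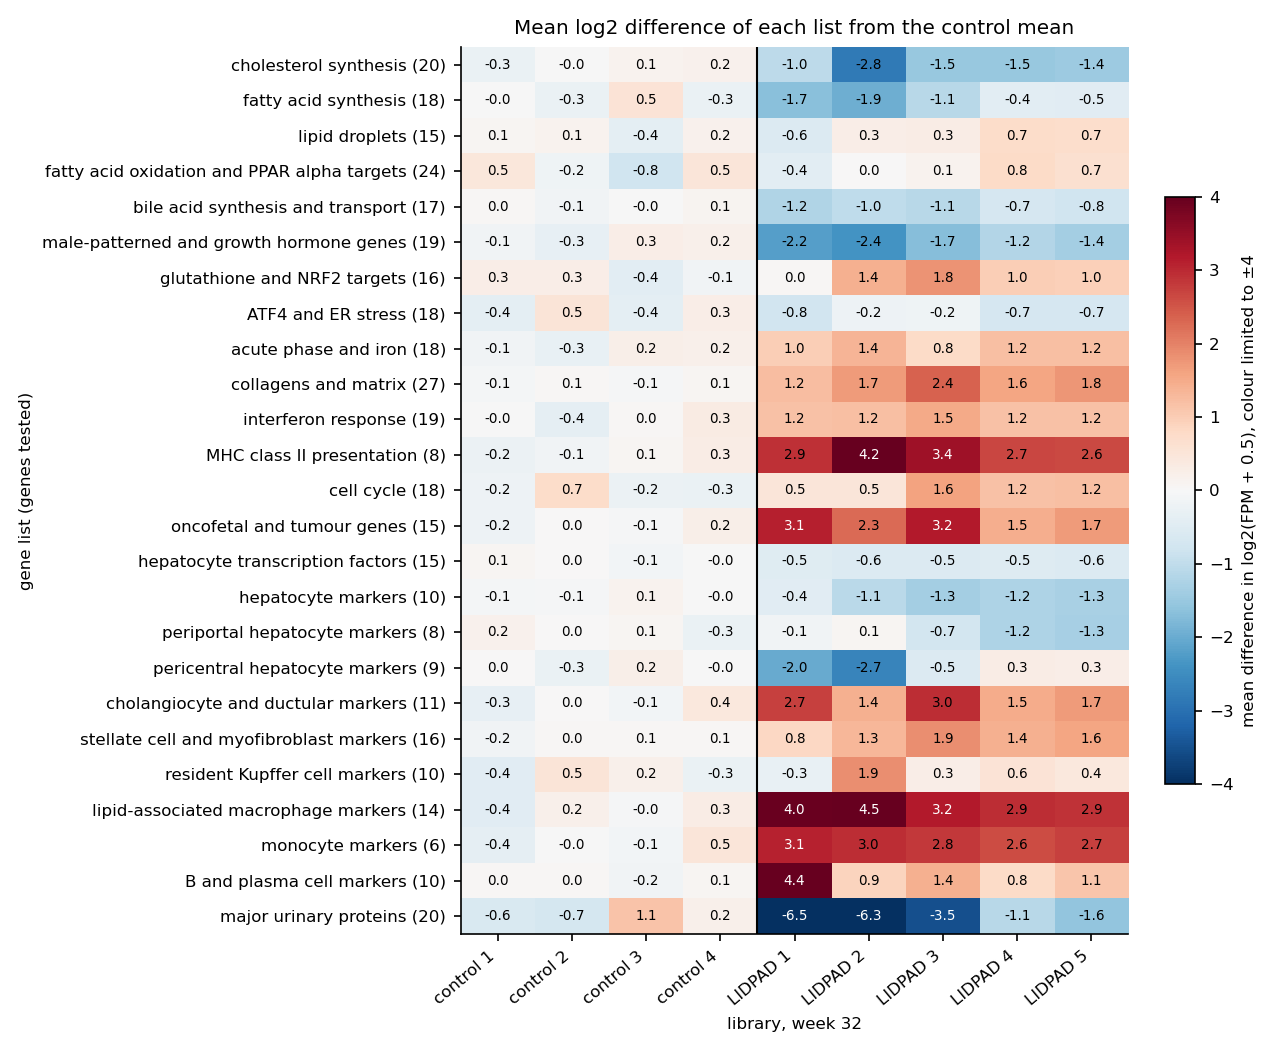
Mean log2 difference of each list from the control mean, in each library, on a colour scale of 4 either side of 0. MHC class II, lipid-associated macrophage and matrix lists are high in all 5 LIDPAD libraries, and male-patterned and pericentral lists are lower in LIDPAD libraries 1 to 3 than in 4 and 5.

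Ductular markers, which bile duct cells and some stressed hepatocytes express, rose in 9 of 11 (median 2.35, 192 to 512 FPM summed in control and 685 to 968 FPM in LIDPAD libraries). Epcam was at 0.321, 0.287, 0.407 and 1.70 FPM in the control libraries and 21.1, 2.68, 18.4, 3.87 and 5.41 FPM in the LIDPAD libraries, highest in LIDPAD libraries 1 and 3 (2.92 ± 0.58, adjusted p = 0.00388). Cd24a was also highest in LIDPAD libraries 1 and 3, with 0.685, 1.86, 0.867 and 1.59 FPM in the control libraries and 24.5, 5.12, 37.1, 7.51 and 10.9 FPM in the LIDPAD libraries (3.03 ± 0.50, adjusted p = 0.00148). Krt19, a cytokeratin of bile ducts, was called but unstable (2.35 ± 0.68, adjusted p = 0.0245). Krt19 was not called without control library 1, 2 or 3 (adjusted p = 0.0575 to 0.0636), and it did not pass the low-value filter without LIDPAD library 1, 3, 4 or 5. Krt19 had an adjusted p of 0.0676 with quantile scaling. Sox9 was not called (0.86 ± 0.33, adjusted p = 0.0773). Anxa2, a membrane-binding annexin, was at 7.43, 7.82, 9.55 and 8.70 FPM in the control libraries and 79.8, 119, 80.0, 116 and 119 FPM in the LIDPAD libraries and had the smallest p-value of the genes that rose (3.52 ± 0.16, adjusted p = 1.21e-06). Anxa5 rose as evenly, with 34.4 to 53.2 FPM in control and 196 to 277 FPM in LIDPAD libraries (2.51 ± 0.15, adjusted p = 8.39e-06).

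Of 20 listed genes of fetal liver and liver tumours 15 were tested and 10 rose (median 2.26). Gpc3 was not tested, at 0.0716 to 0.206 FPM in control and 0.276 to 1.47 FPM in LIDPAD libraries. The list shares Spp1, Epcam and Scd2 with lists above, and H19 passed the low-value filter through the LIDPAD libraries alone. H19, an imprinted RNA silent in adult liver, was at 0, 0, 0 and 0.0669 FPM in the control libraries and 79.6, 6.56, 194, 4.92 and 5.98 FPM in the LIDPAD libraries. It had 0 reads in 3 control libraries and was highest in LIDPAD libraries 1 and 3 (5.33 ± 0.98, adjusted p = 0.00256). Ly6d was at 0.194, 0.207, 0.639 and 1.15 FPM in the control libraries and 17.3, 156, 71.3, 59.3 and 59.7 FPM in the LIDPAD libraries, with LIDPAD library 1 the lowest and LIDPAD library 2 the highest of the diet (5.91 ± 0.51, adjusted p = 4.95e-05). Tspan8 and Golm1 rose by 3.72 ± 0.40, adjusted p = 1.52e-04 and 2.26 ± 0.43, adjusted p = 0.00306. Cell cycle genes rose in 7 of 18 (12 with equal totals, 4 with quantile scaling). Mki67, found in dividing cells, was at 3.31, 13.7, 2.07 and 3.49 FPM in the control libraries and 17.5, 12.5, 37.3, 27.4 and 27.2 FPM in the LIDPAD libraries. LIDPAD library 2 overlapped control library 2 (2.26 ± 0.46, adjusted p = 0.00427). Top2a and Mcm6 rose by 2.40 ± 0.42, adjusted p = 0.00196 and 1.41 ± 0.27, adjusted p = 0.00308.

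Among death and stress genes, Mlkl, the effector of necroptosis, was at 2.85, 3.36, 3.74 and 3.10 FPM in the control libraries and 9.83, 14.3, 11.2, 10.6 and 9.35 FPM in the LIDPAD libraries without overlap (1.61 ± 0.16, adjusted p = 8.51e-05), and Pmaip1, a pro-apoptotic BH3 protein, rose (1.42 ± 0.27, adjusted p = 0.00292). Cdkn1a, a p53 target, was not called (-0.05 ± 0.21, adjusted p = 0.892). Targets of the oxidative stress factor NRF2 rose in 7 of 16 and fell in 1 (median 0.66). Nqo1, a quinone reductase, was at 4.85, 3.19, 1.32 and 3.33 FPM in the control libraries and 10.5, 20.7, 23.3, 11.0 and 10.7 FPM in the LIDPAD libraries (2.11 ± 0.34, adjusted p = 0.00122). Every LIDPAD library was above every control library. Gsta1 and Gsta2, near-identical glutathione transferases whose reads cannot be fully separated, rose by 3.94 ± 0.74, adjusted p = 0.00283 and 3.16 ± 0.54, adjusted p = 0.00169. Gstp1 fell, with 846, 907, 809 and 548 FPM in the control libraries and 156, 230.2, 392, 270.5 and 289 FPM in the LIDPAD libraries (-1.57 ± 0.25, adjusted p = 0.00123). The count lower was 2 without LIDPAD library 4.

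Acute-phase and iron genes rose in 7 of 18 and fell in 2, beside 18.0% and 8.82% of all genes tested. The count that fell was thus near the share of all genes. Lcn2, a siderophore-binding protein, was at 0.954, 0.782, 1.38 and 2.69 FPM in the control libraries and 136, 634, 112, 65.6 and 73.5 FPM in the LIDPAD libraries. LIDPAD library 2 was the highest and no library overlapped (6.22 ± 0.57, adjusted p = 6.22e-05). Orm2 and Saa1, a serum amyloid whose copy Saa2 shares reads, rose by 3.01 ± 0.36, adjusted p = 2.50e-04 and 2.56 ± 0.56, adjusted p = 0.00641, and Tfrc, the transferrin receptor, by 1.31 ± 0.20, adjusted p = 8.29e-04. Hamp, hepcidin, fell, with 304, 348, 213 and 152 FPM in the control libraries and 24.5, 153, 52.1, 55.4 and 61.5 FPM in the LIDPAD libraries (-2.04 ± 0.43, adjusted p = 0.00521). The number lower was 1 without control library 2, 3 or 4 or LIDPAD library 2, 3, 4 or 5. Endoplasmic reticulum and ATF4 genes fell in 8 of 18 and rose in 0 (3 lower with equal totals, and 1 higher without control library 2). Herpud1, of protein degradation at this organelle, was at 341, 608, 576 and 489 FPM in the control libraries and 212, 281, 200.4, 87.7 and 108 FPM in the LIDPAD libraries (-1.59 ± 0.33, adjusted p = 0.00477), with LIDPAD libraries 4 and 5 the lowest. Dnajb9, an Hsp40 chaperone, fell as well (-1.02 ± 0.22, adjusted p = 0.00669).

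Week 32 was set against weeks 16 (3 libraries a diet) and 48 (3 control, 4 LIDPAD) by testing whether the LIDPAD minus control difference itself differed. All week 16 libraries fell in the column set that holds LIDPAD library 1 of week 32. All week 48 libraries fell in the set that holds LIDPAD library 4, and only week 32 held both sets. A diet difference that depends on the set therefore cannot be fully told apart from one that depends on the week. Between weeks 32 and 16, 65 of 15802 genes were called (0.411%), 31 with a higher and 34 with a lower difference at week 32. Leaving out 1 library gave 26 (control 2 of week 32) to 118 (LIDPAD 4 of week 32), and 25 of the 65 were called in every one of these fits. Mfsd2a, a lysolipid transporter, had differences of 3.27 at week 16, -0.57 at week 32 and 1.12 at week 48 (change between weeks -3.84 ± 0.53, adjusted p = 0.00336). Alas1, the first enzyme of haem synthesis, had 2.12 at week 16, -1.24 at week 32 and 0.91 at week 48 (-3.36 ± 0.53, adjusted p = 0.00735), and Angptl4, an inhibitor of Lpl, 1.39 at week 16, -1.30 at week 32 and 0.85 at week 48 (-2.70 ± 0.43, adjusted p = 0.00735). In all 3 the difference was above 0 at week 16 and below 0 at week 32. Control means at weeks 16, 32 and 48 were 9.95, 51.1 and 13.4 FPM (Mfsd2a), 95.7, 379 and 125 FPM (Alas1) and 19.7, 72.7 and 16.9 FPM (Angptl4). LIDPAD means were 90.8, 32.5 and 27.7 FPM, 417, 155 and 221 FPM, and 52.5, 29.2 and 28.7 FPM. Control means were thus highest at week 32, but the weeks were normalized separately, and which diet moved was not tested. Dio1, a thyroid hormone deiodinase, had 3.36 at week 16, 0.04 at week 32 and 0.66 at week 48 (-3.32 ± 0.61, adjusted p = 0.0188), and Creld2, an endoplasmic reticulum chaperone, 1.07 at week 16, -1.51 at week 32 and -1.11 at week 48 (-2.58 ± 0.43, adjusted p = 0.0103). In the other direction were Fzd6, a Wnt receptor, with -0.48 at week 16, 1.32 at week 32 and -0.13 at week 48 (1.80 ± 0.31, adjusted p = 0.0107), and Fbxo32, a ubiquitin ligase, with -0.42 at week 16, 1.47 at week 32 and 0.43 at week 48 (1.90 ± 0.38, adjusted p = 0.0279). Fbxo32 was not called without control library 2 of week 32 (adjusted p = 0.0661), and the other 6 of these genes were called in every such fit. Between weeks 32 and 48, 0 of 15802 genes were called by limma (0.0%), 1905 passed an unadjusted p under 0.05, and the smallest adjusted p was 0.124. Week 48 control library 3 stood apart from control libraries 1 and 2 of that week (chi-square per degree of freedom over genes 25.7 and 25.8). Between libraries 1 and 2 it was 7.1. Only week 32 libraries were left out, so the effect of that library on this comparison was not tested.

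**Figure D5:**
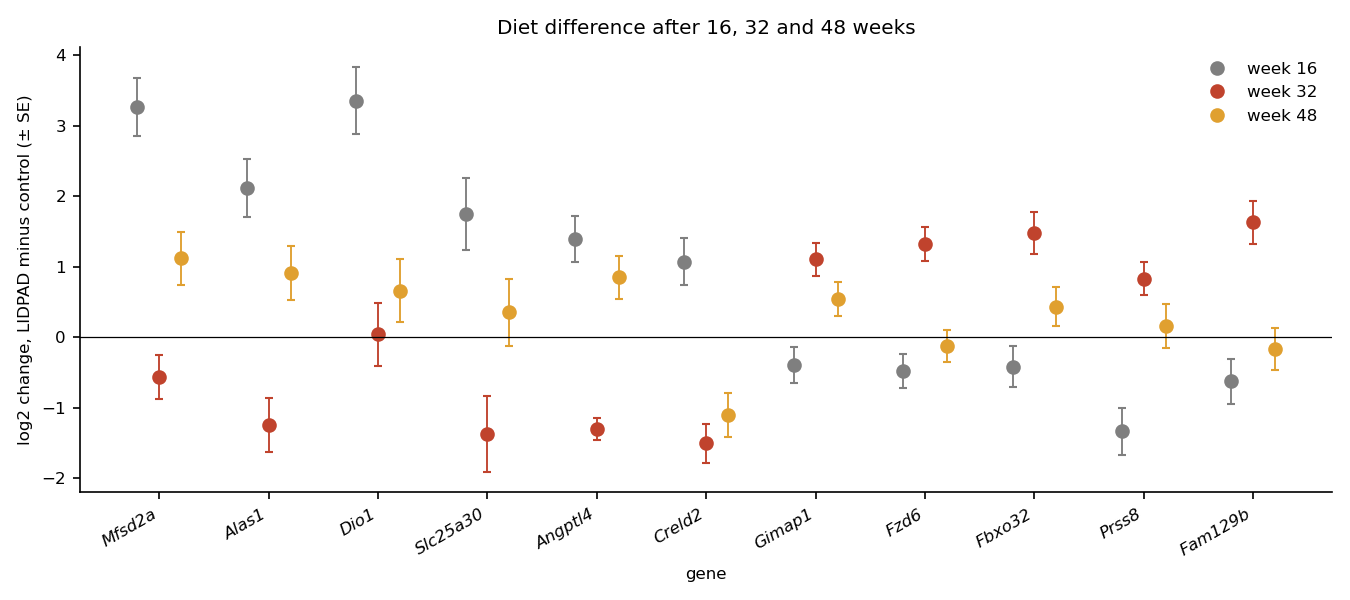
log2 difference of LIDPAD minus control ± SE at weeks 16, 32 and 48 for 11 genes whose difference changed between weeks 16 and 32. Mfsd2a, Alas1, Dio1, Slc25a30, Angptl4 and Creld2 are lower at week 32 than at week 16, and the other 5 are higher.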

How the data were processed

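Total RNA from liver was extracted with TRIzol and a column, and libraries were prepared by a company, per the labels' protocols. The authors aligned reads with HISAT2, counted them with featureCounts and used DESeq2 on genome build GRCm38, per the submitters' processing notes. Versions, the annotation and the strand setting are not given in the sources used here, so reads of antisense and overlapping genes cannot be told apart. The authors deposited a normalized signal named FPM, whose library totals differ as they do after size-factor scaling. In every week 32 column 100.0% of values were whole multiples of 1 read within 0.02 reads, which gave the depth of each library (control 12390479 to 32815306 reads, LIDPAD 10870033 to 30210683 reads).

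Each block of 4 consecutive columns was averaged to 1 library. Within blocks, chi-square per degree of freedom over genes was 2.03 to 2.11, and between libraries of one diet it was 2.58 (LIDPAD 4 against 5) to 30.0. LIDPAD 4 and 5 were kept apart, so the p-values above count them as 2 samples although they were the closest pair. Counting them as 1 sample, an alternative added after seeing the data, gave 3492 calls (2354 higher, 1138 lower). limma 3.58.1 in R 4.3.3 was fitted to log2(FPM + 0.5) with a mean-variance trend, for genes with at least 1 FPM in at least 4 libraries. Weeks 16, 32 and 48 shared 1 joint fit, with at least 1 FPM in at least 3 libraries, and the weeks were normalized separately, so only differences within a week were compared. edgeR 4.0.16 and DESeq2 1.42.0 on recovered reads were alternatives, as were other pseudocounts, filters, scalings, library weights, the replicate block, each column set and leaving out each library. Library measures were compared with exact permutation tests over 126 splits (smallest possible p 0.0159). The fit was tested on simulated data.

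The genes and lists were chosen with earlier results of these data known. Named genes were taken from 90 index genes, the 15 largest rises, the 15 largest falls and the 10 smallest p-values among called genes whose diets did not overlap, the 3 smallest p-values and any contrary calls in each list, the 6 largest rises and falls of each between-week test, the genes with the largest spread and the 10 most abundant. Hmgcs1, Fabp1 and H2-DMb1 lie outside this rule and were chosen after their values were seen. Some items are not reported here. Promoters came from RefSeq on GRCm38.p6.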

Additional observations from a re-analysis of the deposited data

Results flagged for a closer look

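Single libraries stood apart from the others of their diet in 21 of 276 gene and diet combinations examined. The mark used, the gap to the nearest library as a share of the range, is passed by chance in about 1 of 20 combinations. LIDPAD library 1 held 158 FPM of Jchain against 3.64 to 5.47 FPM in the other LIDPAD libraries, 92258 FPM of Alb against 20289.5 to 29513 FPM, 14.8 FPM of Gbp2 against 11.7 to 12.3 FPM and 2.88 FPM of Cd163 against 0.616 to 0.741 FPM. The same library was lowest for Clec4f (0.716 FPM against 33.8 to 76.0 FPM), Cidec (4.37 against 29.7 to 54.1 FPM) and Cfd (0.165 against 9.00 to 23.8 FPM). LIDPAD library 2 was highest for the macrophage genes Clec7a (139 FPM against 34.7 to 46.9 FPM), Itgax (57.0 against 17.8 to 21.1 FPM) and Adgre1 (89.7 against 43.6 to 49.1 FPM), and lowest for Hmgcs1 (45.2 against 115 to 155 FPM). LIDPAD library 3 was highest for Mmp2, at 21.9 against 8.11 to 10.8 FPM.

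In control livers, library 2 was highest for Mcm6 (5.91 against 2.67 to 3.02 FPM) and Hnf4a (565 against 427 to 446 FPM) and lowest for Mttp (276 against 314 to 321 FPM). Control library 3 was highest for Oas1a (5.46 against 2.81 to 2.94 FPM) and lowest for Alas1 (150.1 against 419 to 505 FPM). Control library 4 was highest for Clec7a (3.57 against 2.14 to 2.25 FPM), Epcam (1.70 against 0.287 to 0.407 FPM) and H19 (0.0669 FPM against 0), and control library 1 for Gimap1 (1.00 against 0.374 to 0.451 FPM).

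Between weeks 32 and 16 the diet difference itself differed for 11 genes named here, by the joint limma fit. It was lower at week 32 for Mfsd2a (-3.84), Alas1 (-3.36), Dio1 (-3.32), Slc25a30 (-3.12), Angptl4 (-2.70) and Creld2 (-2.58). It was higher at week 32 for Fam129b (2.26), Prss8 (2.17), Fbxo32 (1.90), Fzd6 (1.80) and Gimap1 (1.51). All values are on the log2 scale. Leaving out control library 2 of week 32 took the adjusted p to 0.0505 for Fam129b, 0.0658 for Prss8 and 0.0661 for Fbxo32. Slc25a30 was not called without that library or LIDPAD library 1, and Gimap1 was not called without control library 2, 3 or 4 or LIDPAD library 1 or 4 (adjusted p up to 0.0865 and 0.0923). The other 6 were called whichever week 32 library was left out.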

How the results depend on the processing

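The number of genes called ranged from 2988 to 3629 when a library was left out (2046 to 2424 higher, 864 to 1205 lower), and 2405 of the 3810 were called in every such fit. It was 6904 in control 4 with LIDPAD 4 and 5 alone (4002 higher, 2902 lower), a fit that rests on 1 control library, assumed to vary like the LIDPAD libraries. In that fit Glul (0.68), Clec4f (0.74), Fasn (0.20) and Cyp7a1 (-0.30) changed sign. Genes called higher were 1440 with a filter of 5 FPM, where fewer genes are tested, and 4070 with equal totals. Genes called lower were 362 with equal totals, 2007 with library weights, 1912 with DESeq2 and 832 with the replicate block. Libraries of the same number in the 2 diets had deviations from their diet means that correlated at -0.10, 0.10, -0.03 and 0.12. These values gave no sign of a pairing by number but cannot exclude one. The block gave 2921 calls. The week 16 comparison gave 325 calls with the column set as a term and 26 to 118 when a library was left out (117 without control 4). The week 48 comparison gave 1 call without the trend and 0 to 1 when a library was left out (1 without control 1). Other than the stated arithmetic, the cause was not tested. Of 120 called genes named here, 103 were called without any single library, 8 were not called with equal totals and 15 were not with quantile scaling, and edgeR did not call 4. Depth limits genes near 1 FPM.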

Other observations

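Gene families outside the lists were grouped by symbol after the values were seen and are given as counts. Of 11 Toll-like receptors tested 10 rose and 0 fell (median 2.09), of 26 integrins 17 rose (median 0.91), and of 9 Ms4a membrane proteins 7 rose (median 1.89). Annexins, which bind phospholipid membranes, rose in 7 of 10 (median 1.78), and S100 calcium-binding proteins in 3 of 8. Among P450 families, 5 of 7 Cyp3a enzymes rose (median 1.77) while 4 of 7 Cyp2d enzymes fell (median -1.11), and their copies share reads. Of 15 Serpina protease inhibitors 9 fell and 1 rose (median -0.78, 2 rose without control library 4). Heat shock and Hsp40 chaperones fell in 17 of 65 and rose in 5, and with equal totals 1 fell and 9 rose. Without control library 2, 3 or 4 the count that fell was 7, 11 and 11, and without control library 1 or 3 the count that rose was 3. Of 79 ribosomal protein genes 0 rose and 1 fell (median 0.00), with 8 higher with equal totals, 3 lower without LIDPAD library 1 and 1 higher without control library 4.

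Erythroid markers gave no call among 5 tested with limma, edgeR or DESeq2, and 0 passed an unadjusted p under 0.05. Without LIDPAD library 1, 4 of them were called lower. Their summed level was 499.7 to 585 FPM in control and 333 to 2136 FPM in LIDPAD libraries. Sinusoidal endothelial markers split as 1 higher and 1 lower of 13, the count lower being 3 without LIDPAD library 1, 2 without LIDPAD library 4 and 0 without LIDPAD library 3 or control library 2, 3 or 4. Pecam1, shared by all endothelium, had a difference of 1.06. Smooth muscle and portal fibroblast markers rose in 4 of 5.

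Over all genes tested, the SD of log2(FPM + 0.5) was larger among LIDPAD than among control libraries for 61.7%.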
